A study of Homo sapiens with 4 samples.

Results

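The beta-catenin destruction complex and the TCF and LEF transcription factors were followed here through 10 genes, taken by gene symbol from the 19192 genes of the count files. All 10 were found in each of the 4 libraries. They are CTNNB1, which encodes beta-catenin, APC, AXIN1, GSK3B and BTRC of the machinery that destroys it, the nuclear cofactor gene BCL9, and the factor genes TCF7, TCF7L1, TCF7L2 and LEF1. The libraries came from 2 lines derived from SW480 cells, which were established from a human colorectal adenocarcinoma. The first carried the label LIN28B OE (overexpression of the RNA-binding protein LIN28B) and the second LIN28B OE+IMP1-/- knockout, where IMP1 is the RNA-binding protein encoded by IGF2BP1. Both lines therefore carry the LIN28B overexpression label. Each line gave 1 library of randomly fragmented RNA and 1 library of ribosome footprints, the short mRNA pieces that translating ribosomes protect. Each library was made from 3 pooled culture plates, and whether the knockout line is a single clone is not given in the sources used here.

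Beta-catenin joins cadherins to the cytoskeleton and also acts in the nucleus as a coactivator. AXIN1 and APC hold it in a complex where casein kinase 1 and GSK3B phosphorylate its amino terminus, and BTRC, the substrate receptor of a ubiquitin ligase, then marks it for the proteasome. WNT ligands block this step, and beta-catenin that escapes binds TCF and LEF factors, with BCL9 bridging it to further coactivators. SW480 is known for a truncated APC protein and for high beta-catenin activity, a background that both lines share. BTRC mRNA has been described as a target of IMP1.

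IGF2BP1, the gene knocked out per the label, was not lower in the libraries carrying that label. It had 840 counts in the OE-labelled and 1974 in the knockout-labelled RNA library, and 332 and 821 footprint counts. LIN28B had 1205 and 303 RNA counts and 190 and 46 footprint counts. Directions below are therefore between libraries carrying these labels, called OE-labelled and knockout-labelled, and the part that IGF2BP1, LIN28B or any other difference between the lines plays cannot be told apart. Total counts lay between 5429224 and 6813372 in RNA and between 2732760 and 3260262 in footprints. Of 10 colon epithelial markers, 7 were detected in each library. In both RNA libraries, CDX1, KRT20 and LGALS4 were those without a count. The summed level of the 10 markers was 10440 and 4955 CPM (counts per 1000000 scaled counts of a library) in OE-labelled and knockout-labelled RNA. Haematopoietic markers summed to at most 32.0 CPM and fibroblast and endothelial markers to at most 20.4 CPM in any library. Because each line and assay has 1 library, differences have no replicate check and no p-value was computed. All 95% intervals cover counting error only.

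The following sets of coding sequence are reference sequence, shown for the signal through which beta-catenin is destroyed and the stretch that the DNA-binding factors share. They were not read from these libraries, and RNA and footprint counts do not measure destruction of the protein. The first is from the listed CTNNB1 transcript (ENST00000405570), coding bases 82 to 123, and encodes the degron that BTRC reads. Capitals mark the codons of the 2 serines of its motif. The motif was found 1 time in the translated coding sequence.

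CTNNB1: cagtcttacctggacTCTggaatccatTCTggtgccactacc

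The second set is the 90-base coding stretch, 30 residues long, that was most alike among the 4 TCF and LEF genes. It lies in the HMG box, the domain that binds DNA. It is given for LEF1 (ENST00000265165, coding bases 955 to 1044), TCF7 (ENST00000342854, 865 to 954), TCF7L1 (ENST00000282111, 1096 to 1185) and TCF7L2 (ENST00000369397, 1039 to 1128). Capitals mark bases that differ from LEF1.

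LEF1: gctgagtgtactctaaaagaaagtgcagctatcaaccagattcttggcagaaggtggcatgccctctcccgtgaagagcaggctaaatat
TCF7: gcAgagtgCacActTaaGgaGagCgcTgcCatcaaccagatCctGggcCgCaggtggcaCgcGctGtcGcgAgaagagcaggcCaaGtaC
TCF7L1: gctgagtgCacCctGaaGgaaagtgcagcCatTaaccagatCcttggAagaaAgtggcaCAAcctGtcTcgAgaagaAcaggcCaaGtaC
TCF7L2: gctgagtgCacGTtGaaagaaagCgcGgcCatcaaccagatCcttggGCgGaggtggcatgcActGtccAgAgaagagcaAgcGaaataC

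TCF7 and TCF7L2 encode the same 30 residues as LEF1 here, and TCF7L1 encodes 28 of them, yet the bases differed at 21, 18 and 19 of 90 positions. Over whole coding sequences, the longest run shared by LEF1 and TCF7L2 was 16 bases, by LEF1 and TCF7 11 bases, and by TCF7 and TCF7L2 17 bases. These runs are shorter than the 18 nt of the shortest fragments kept. TCF7L1 shared runs of 29 bases with LEF1 and 26 bases with TCF7L2. Of 34-base windows, the longest footprint length kept, no window of the 4 factor genes or of CTNNB1, AXIN1, BTRC or BCL9 was found in a transcript of another gene. In APC 2.32% and in GSK3B 0.87% of such windows were. Of 18-base windows, 1.02% in LEF1, 0.68% in TCF7L2, 1.37% in TCF7L1 and 0 in TCF7 were found in another of the 4 factor genes. The highest shares found in a transcript of any other gene were 6.63% in GSK3B, 5.55% in TCF7L1 and 3.4% in APC.

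In GRCh38, the listed transcripts span chromosome 3, 41194868 to 41239904 (CTNNB1), chromosome 5, 112737888 to 112846239 (APC), chromosome 16, 287440 to 352659 (AXIN1), chromosome 3, 119826686 to 120093666 (GSK3B) and chromosome 10, 101354063 to 101557321 (BTRC). BCL9 lies on chromosome 1, 147541412 to 147626216, TCF7 on chromosome 5, 134114711 to 134147997, TCF7L1 on chromosome 2, 85133410 to 85310388, TCF7L2 on chromosome 10, 112950452 to 113167678, and LEF1 on chromosome 4, 108047545 to 108168422. CTNNB1 and TCF7 overlap ULK4 and SKP1 on the opposite strand, but their listed exons share 0 bases. APC overlaps the protein-coding gene AC008575.1 on the same strand, which is not in the count files.

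CTNNB1 stood far above the genes that control it. Levels between genes are given as CPM per kb of coding sequence. RNA fragments need not come from coding sequence, so the order of genes in RNA can depend on this choice of length. In RNA, CTNNB1 was at 207.9 (OE-labelled) and 163.1 (knockout-labelled), and the next highest were TCF7 at 39.96 in the OE-labelled and GSK3B at 44.05 in the knockout-labelled library. In footprints, CTNNB1 was at 762 and 600, and the second gene in both was GSK3B at 36.9 and 32.8. BTRC followed at 20.7 and 29.2. APC was among the lowest, at 5.80 and 6.58 in RNA and 2.16 and 2.50 in footprints. TCF7L1 was lowest in RNA, at 2.07 and 5.03. Of the summed counts of the 10 genes, CTNNB1 took 59.1% (57.6 to 60.6, exact Clopper-Pearson interval) and 51.3% (50.0 to 52.7) in RNA and 90.7% (89.9 to 91.4) and 88.5% (87.6 to 89.4) in footprints.

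**Figure D1:**
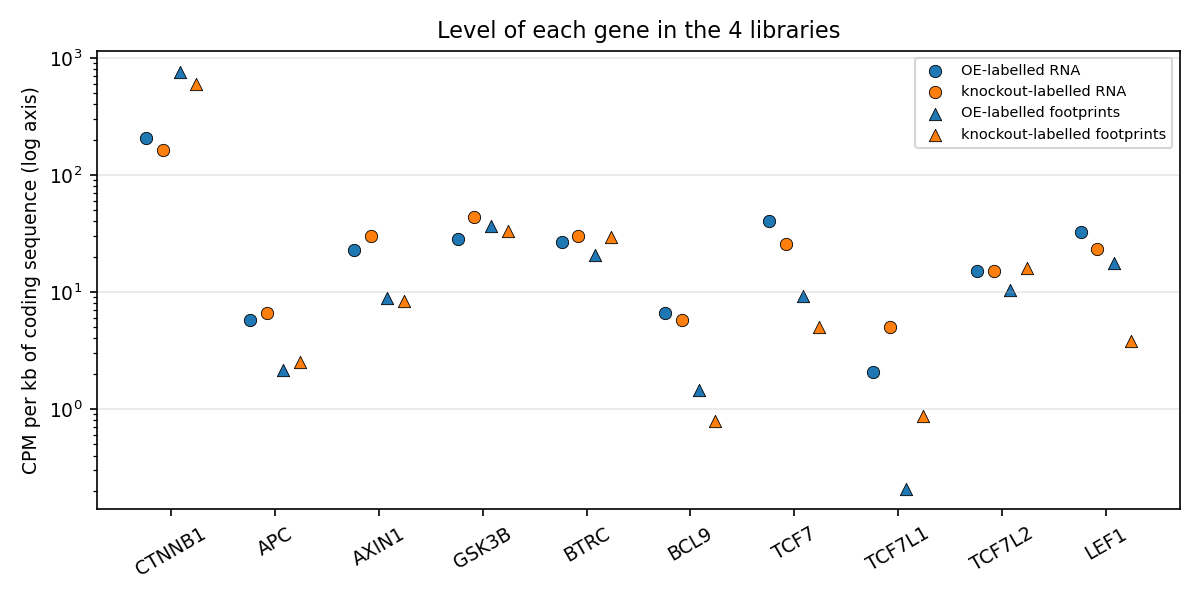
Level of each of the 10 genes in CPM per kb of coding sequence (log axis); circles are RNA and triangles footprints, blue the OE-labelled and orange the knockout-labelled line, 1 library each. CTNNB1 is highest in all 4 libraries, and its triangles lie above its circles. In both lines the triangles of APC, AXIN1, BTRC, BCL9, TCF7, TCF7L1 and LEF1 lie below their circles, BTRC by the least. Coding length divides both assays, though RNA fragments need not come from coding sequence, so triangles against circles depend on this choice. The assays were also scaled separately and share no scale. A triangle above or below a circle is thus a place on the plot and not a difference in amount.

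Between the lines, few of the 10 genes differed by much in RNA, and not in 1 direction. Ratios are knockout-labelled over OE-labelled, scaled by TMM factors within an assay, and a gene counts as measured with a mean of at least 50 counts over the 2 libraries. Among 9 measured members, GSK3B was at least 1.5-fold higher and TCF7 at least 1.5-fold lower, with a median log2 ratio of -0.01. Over all 9855 measured genes, 10.5% were higher and 10.5% lower by this fold, and the median was 0.01. The members' counts are near this background.

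CTNNB1 had 2540 and 2712 RNA counts, or 487 and 382 CPM, so it was 1.27-fold lower in the knockout-labelled library (log2 ratio -0.35, 95% interval -0.43 to -0.27). Its footprints were lower to nearly the same degree, with 4841 and 4620 counts, or 1785 and 1406 CPM (log2 ratio -0.34, -0.40 to -0.29). Its translational efficiency ratio, the footprint ratio over the RNA ratio, was therefore close to 1 (log2 0.01, -0.09 to 0.10). These intervals are the narrowest of the 10 genes, as its counts are the highest. CTNNB1 stayed under 1.5-fold, at percentile 20.9 of all RNA ratios and 25.2 of all footprint ratios. Relative to its 40 nearest measured genes the difference was -0.46 in RNA and -0.18 in footprints. In efficiency it was 0.24, above the counting interval.

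The 4 genes of the destruction machinery were level or higher in RNA. GSK3B, the kinase that phosphorylates the serines of the degron, had 190 and 406 RNA counts, or 36.5 and 57.2 CPM (log2 ratio 0.65, 0.40 to 0.91). Its footprints did not follow, with 130 and 140 counts, or 47.9 and 42.6 CPM (log2 ratio -0.17, -0.52 to 0.19). Its efficiency ratio was the lowest of the measured members at -0.82 (-1.24 to -0.39), at percentile 6.75 of 7260 genes. The genes around GSK3B were themselves higher, with a median of 0.33 in RNA and 0.44 in footprints over the 40 nearest. Relative to them, GSK3B stood at 0.32 in RNA, under 1.5-fold, and at -0.61 in footprints. The part of this neighbourhood in the result was not tested.

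AXIN1, the scaffold that limits assembly of the complex, had 305 and 548 RNA counts, or 58.5 and 77.2 CPM (log2 ratio 0.40, 0.20 to 0.61). Its footprints had 62 and 71 counts, or 22.9 and 21.6 CPM (log2 ratio -0.08, -0.59 to 0.43), and the interval of its efficiency ratio of -0.48 (-1.01 to 0.05) crossed 0. In both AXIN1 and GSK3B, the RNA interval lay above 0 and the footprint interval held 0. The AXIN1 footprint interval also held its RNA ratio of 0.40, so a difference between its assays is not shown. The efficiency interval excluded 0 in GSK3B and not in AXIN1.

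BTRC had 253 and 386 RNA counts, or 48.5 and 54.4 CPM (log2 ratio 0.16, -0.07 to 0.40). Its footprints were 1.41-fold higher, with 102 and 174 counts, or 37.6 and 53.0 CPM (log2 ratio 0.49, 0.13 to 0.86). The footprint interval lies above 0 and the efficiency interval does not (0.33, -0.09 to 0.75). APC, the other scaffold, had 258 and 398 RNA counts (49.5 and 56.1 CPM) and 50 and 70 footprint counts (18.4 and 21.3 CPM). Its log2 ratios of 0.18 (-0.05 to 0.41) and 0.21 (-0.34 to 0.76) do not exclude 0.

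A comparison inside each library needs no scaling between libraries. CTNNB1 had 2.53 RNA counts for each count of APC, AXIN1, GSK3B and BTRC together in the OE-labelled and 1.56 in the knockout-labelled line, a log2 change of -0.69 (-0.83 to -0.56). In footprints these were 14.1 and 10.2, a log2 change of -0.47 (-0.68 to -0.26). Both assays gave less CTNNB1 relative to the 4 genes in the knockout-labelled line, and both intervals exclude 0. The sum of the 4 genes went from 193 to 245 CPM in RNA (log2 ratio 0.34, 0.23 to 0.46) and from 127 to 139 CPM in footprints (0.13, -0.08 to 0.33).

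**Figure D2:**
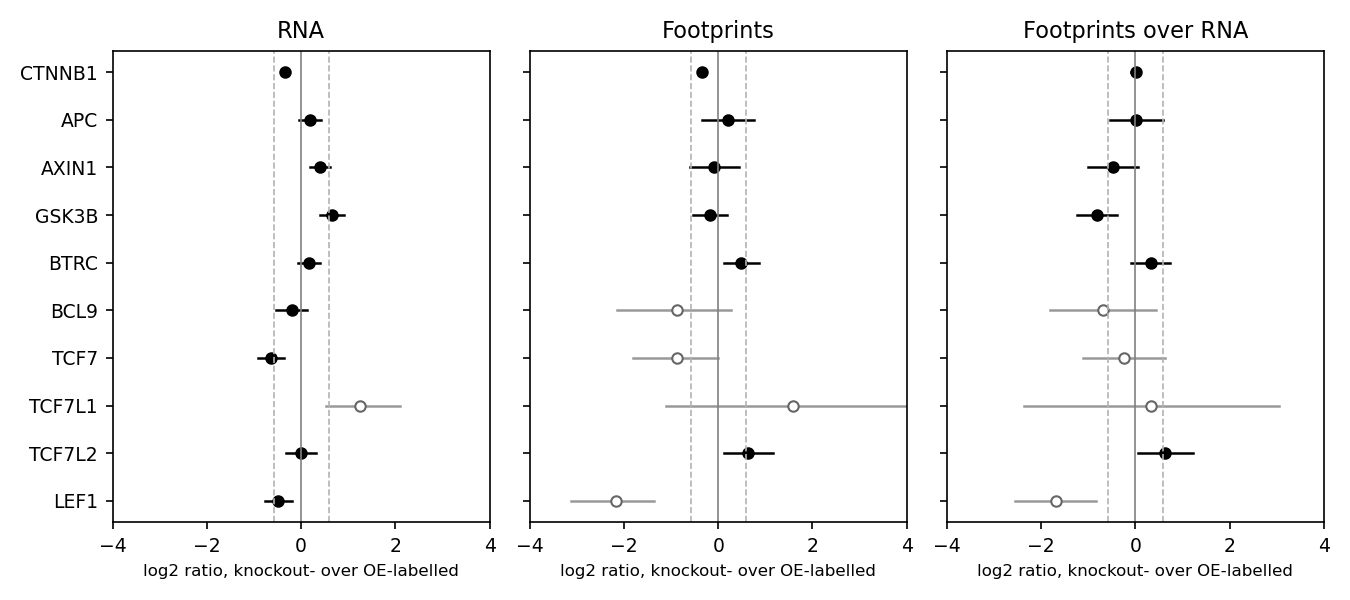
Log2 ratios, knockout-labelled over OE-labelled, in RNA, footprints and footprints over RNA, with lines for 95% counting intervals and dashed lines at 1.5-fold. Open symbols had under 50 counts on average in an assay used, and the TCF7L1 footprint interval runs past the axis; LEF1 lies furthest from 0 in footprints, at -2.17.

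The TCF and LEF genes differed among themselves, most of all in footprints. LEF1 and TCF7 were lower in both assays, TCF7L2 was level in RNA and higher in footprints, and TCF7L1 was barely detected. TCF7 had 240 and 210 RNA counts, or 46.0 and 29.6 CPM (log2 ratio -0.64, -0.91 to -0.36). LEF1 had 204 and 199, or 39.1 and 28.1 CPM (-0.48, -0.77 to -0.19). TCF7L2 had 141 and 191 RNA counts, or 27.1 and 26.9 CPM (-0.01, -0.33 to 0.32). The TCF7 difference was under 1.5-fold when scaled by total counts (-0.52) or taken relative to its 40 nearest genes (-0.57). Both TCF7 and LEF1 are themselves known as WNT targets in intestinal cells. AXIN2 and CCND1, further targets, stood at -1.69 and -1.53 in RNA. They are chosen examples, and the part of WNT signalling in these differences was not tested.

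In footprints, LEF1 had 57 counts in the OE-labelled and 15 in the knockout-labelled library, or 21.0 and 4.57 CPM. It was 4.49-fold lower (log2 ratio -2.17, -3.13 to -1.36), and its efficiency ratio was 3.22-fold lower (log2 -1.69, -2.54 to -0.83). Its mean count is under the minimum of 50, so it is outside the counts of measured members. Among 3421 genes with a mean of 10 to 50 footprint counts, where 29.6% were at least 1.5-fold lower, 143 had a lower ratio than LEF1, which puts it at percentile 4.18.

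TCF7L2, the factor most tied to intestinal stem cells, went the other way, with 50 and 94 footprint counts, or 18.4 and 28.6 CPM (log2 ratio 0.63, 0.12 to 1.16). It was the 1 of 6 measured members at least 1.5-fold higher in footprints, and 0 were lower, against 15.0% and 14.1% of 7323 genes. With 5 added to each count it was at 0.57, under 1.5-fold. The median of the 6 measured members was 0.06 and that of all genes 0.02. With a count minimum of 10, which takes in BCL9, TCF7 and LEF1, the members' median was -0.17. TCF7 had 29 and 19 footprint counts (10.7 and 5.78 CPM; log2 ratio -0.87, -1.80 to -0.003), at percentile 21.7 of the same low-count genes.

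TCF7L1, which mostly acts as a repressor, had 19 and 63 RNA counts, or 3.65 and 8.88 CPM (log2 ratio 1.26, 0.53 to 2.11), and 1 and 5 footprint counts (1.60, -1.11 to 7.61). It is under the minimum in both assays.

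The make-up of the TCF and LEF counts therefore differed between the libraries. LEF1 took 41.6% (33.3 to 50.3) of 137 footprint counts in the OE-labelled and 11.3% (6.45 to 17.9) of 133 in the knockout-labelled library. TCF7L2 took 36.5% (28.4 to 45.2) and 70.7% (62.2 to 78.3). In RNA the shares of LEF1 were 33.8% and 30.02% and those of TCF7L2 23.3% and 28.8%, with overlapping intervals. TCF7L1 went from 3.15% (1.90 to 4.87) to 9.50% (7.38 to 12.0) of RNA counts. The ratio of LEF1 to TCF7L2 counts was 1.14 and 0.160 in footprints, a log2 change of -2.80 (-3.74 to -1.85), against -0.47 (-0.89 to -0.05) in RNA. For TCF7 to TCF7L2 the log2 change was -1.50 (-2.46 to -0.54) in footprints and -0.63 (-1.04 to -0.22) in RNA. The scaled sum of the 4 genes had similar log2 ratios in both assays, -0.31 (-0.47 to -0.15) in RNA and -0.32 (-0.67 to 0.04) in footprints. The footprint interval holds 0.

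**Figure D3:**
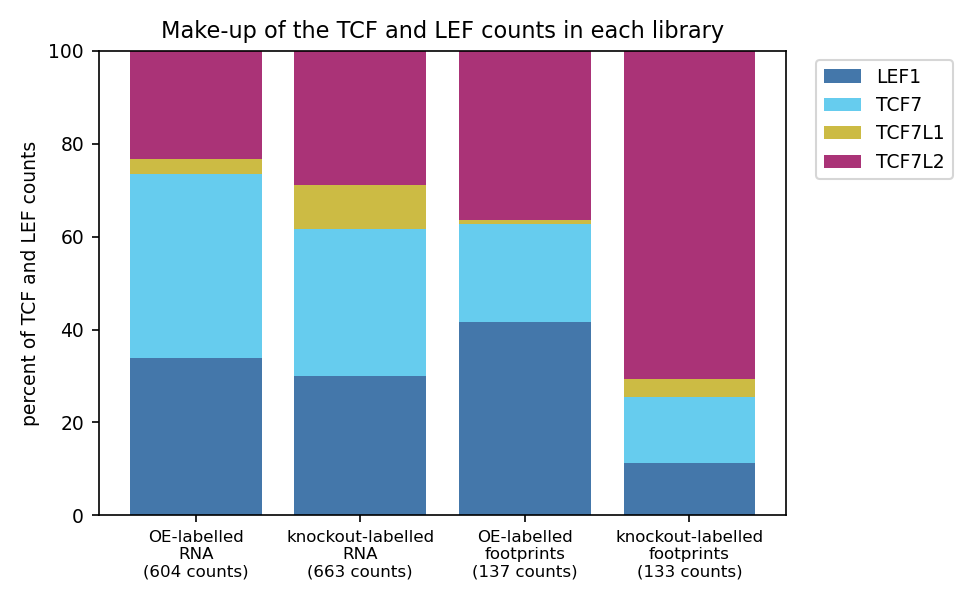
Percent of the summed TCF and LEF counts taken by each of the 4 genes, 1 bar per library, with the summed counts under each bar. The TCF7L2 share is 36.5% and 70.7% in OE-labelled and knockout-labelled footprints, and 23.3% and 28.8% in RNA.

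BCL9 had 146 and 173 RNA counts, or 28.0 and 24.4 CPM (log2 ratio -0.20, -0.53 to 0.13). With 17 and 11 footprint counts its footprint ratio of -0.88 (-2.14 to 0.27) did not exclude 0. In translational efficiency, TCF7L2 (0.64, 0.05 to 1.22) was the 1 of 6 measured members at least 1.5-fold higher and GSK3B the 1 at least 1.5-fold lower, against 13.4% and 12.9% of 7260 genes. Scaled by total counts, TCF7L2 was at 0.54, under 1.5-fold.

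Within each line, the 10 genes spread over nearly the whole range of footprints per RNA. The log2 ratio of footprint to RNA CPM was ranked among 7260 genes measured in both assays. Members under the count minimum were placed among these same genes. Genes with few footprints are thus missing from the comparison, which can make such ranks too low. CTNNB1 had 4841 footprint and 2540 RNA counts in the OE-labelled line, 3.16 times the median gene, at percentile 98.7 (98.3 to 99.1 over its counting interval), with 94 genes above it. In the knockout-labelled line it was 3.13 times the median, at percentile 98.7 (98.3 to 98.9). CTNNB1 was thus at the same place in both lines.

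The scaffolds were at the other end. APC was at percentiles 7.34 (3.33 to 13.6) and 8.40 (4.70 to 13.7), and AXIN1 at 8.09 (4.20 to 13.9) and 4.27 (2.37 to 7.15). TCF7 was at 2.22 (0.88 to 6.14) and 1.97 (0.55 to 5.52), and BCL9 at 2.08 (0.65 to 7.42) and 0.84 (0.30 to 3.69), both from under 50 footprint counts on average. BTRC lay at 28.9 (19.5 to 40.2) and 39.9 (31.5 to 49.6). The low ranks also depend on the count minimum of the ranked genes. With it lowered to 10, APC was at 13.9 and 14.38 and AXIN1 at 14.95 and 8.81, outside these intervals. TCF7 was then at 5.98 and 4.95 and BCL9 at 5.71 and 2.65.

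LEF1 and GSK3B stood at different places in the lines, with percentile intervals that did not overlap. LEF1 was at 15.4 (8.60 to 25.8) in the OE-labelled and 1.21 (0.44 to 4.26) in the knockout-labelled line, from under 50 footprint counts on average. GSK3B was at 58.2 (44.5 to 72.6) and 27.6 (20.4 to 36.4). With the count minimum of the ranked genes lowered to 10, LEF1 was at 23.8 and 3.53 and GSK3B at 64.3 and 36.1. TCF7L2 was at 23.4 (13.2 to 38.5) and 44.5 (32.5 to 59.1), with intervals that overlap.

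These ranks depend on the transcript model. Coding sequence is 88.7% of the listed CTNNB1 transcript, 79.7% of APC, 71.0% of AXIN1, 47.0% of TCF7L2, 39.0% of LEF1, 37.8% of TCF7 and 29.6% of BTRC, and footprints come from coding sequence while RNA fragments need not. Across 7252 genes, which are not independent replicates, footprints over RNA had a Spearman rho of 0.30 (OE-labelled) and 0.27 (knockout-labelled) with the coding share. With footprints per coding kb set over RNA per transcript kb, CTNNB1 moved to percentiles 82.0 and 81.2, and BTRC to 58.2 and 70.0. APC (1.81 and 2.73), AXIN1 (2.92 and 1.70), BCL9 (0.73 and 0.39) and TCF7 (4.10 and 3.53) stayed low. LEF1 was at 22.6 and 2.07 on this scale, TCF7L2 at 24.7 and 48.0, and TCF7L1 at 0.33 and 1.01. GSK3B was at 31.2 and 11.9, below the median in both lines, where the plain ratio had it above the median in the OE-labelled line.

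**Figure D4:**
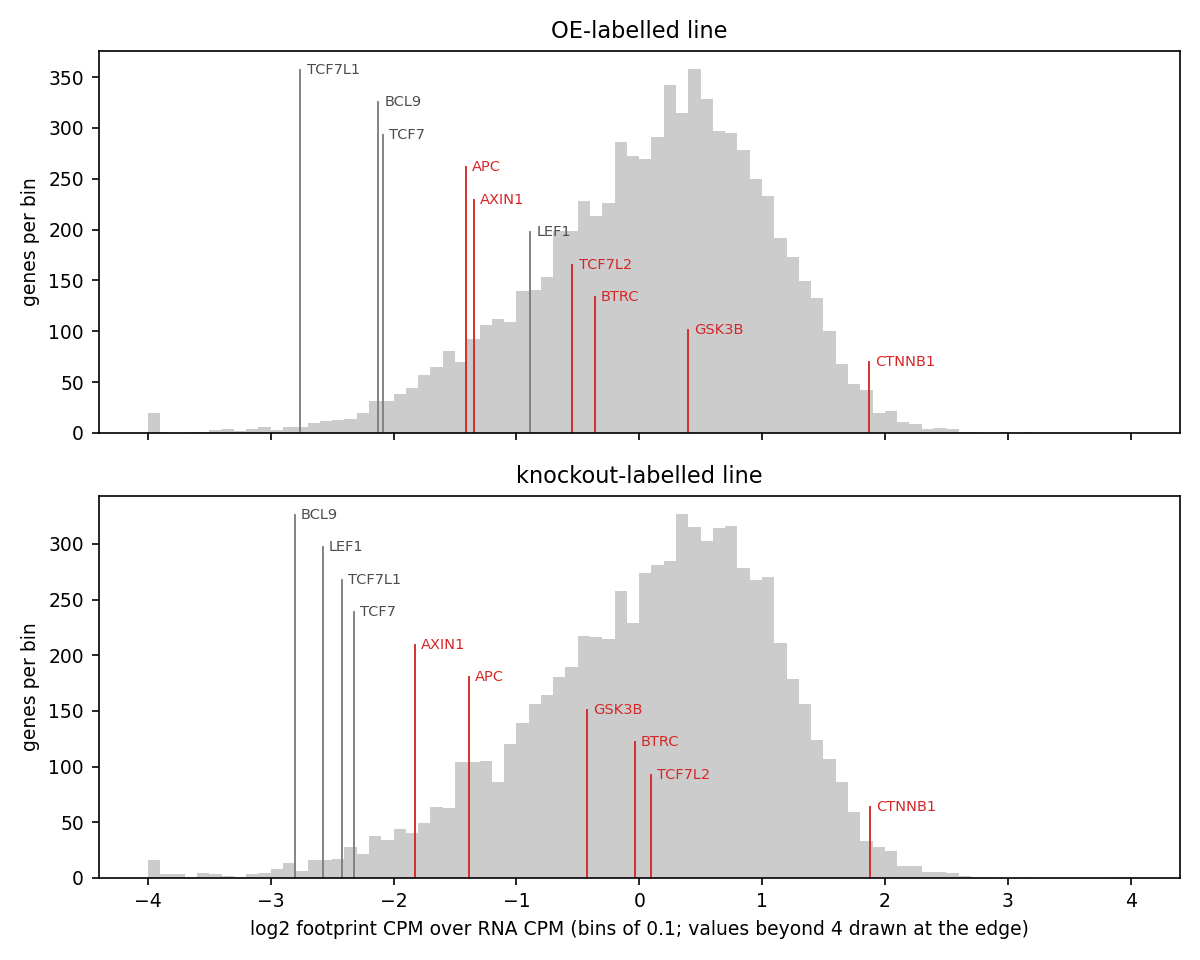
Histogram of log2 footprint CPM over RNA CPM for 7260 genes (grey, bins of 0.1) in the OE-labelled (top) and knockout-labelled (bottom) line, with lines at the 10 genes; red names were measured in both assays, grey names were not, and line heights carry no value. CTNNB1 lies at the upper end of both panels (percentile 98.7), and LEF1 lies at percentile 15.4 in the top and 1.21 in the bottom panel.

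The rest of the pathway was described through 6 lists of genes by role. Their counts stand against the shares of all measured genes given above, 10.5% higher and 10.5% lower in RNA, 15.0% and 14.1% in footprints, and 13.4% and 12.9% in efficiency, and with 5 to 13 measured genes a list these shares amount to few genes. Other members and regulators of the destruction complex had a median log2 RNA ratio of 0.12 over 13 measured genes and a footprint median of -0.13 over 9. The counts past 1.5-fold in this list are small, as are those the background shares would give. In RNA, 2 were at least 1.5-fold higher, the tankyrase gene TNKS (0.84), whose product marks axins for destruction, and the phosphatase subunit gene PPP2R5E (0.59). The 3 lower genes were AXIN2 (-1.69), APC2 (-1.33) and PPP2R1A (-0.61). AXIN2, the WNT-induced paralogue of AXIN1, had 841 and 354 RNA counts and 316 and 88 footprint counts, opposite in RNA to AXIN1. It was also the 1 gene of this list at least 1.5-fold lower in footprints (-2.11), where none was higher. In efficiency, TNKS2 (-0.94) and PPP2R5E (-0.59) were lower.

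Genes of the ubiquitin ligase and of beta-catenin turnover had median ratios of -0.04 in RNA, -0.15 in footprints and 0.01 in efficiency. None of 8 measured in RNA, 7 in footprints and 7 in efficiency was at least 1.5-fold different in either direction. Of all measured genes, 21.0% in RNA and 26.3% in efficiency were, so a count of 0 in so short a list is read no further. The scaffold gene CUL1 was lowest in both assays (-0.38 and -0.37), COPS5 highest in RNA (0.55) and the adaptor gene SKP1 highest in footprints (0.36).

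Nuclear cofactors had an RNA median of 0.19 over 9 genes and a footprint median of -0.54 over 7. The Mediator subunit gene MED12 was lower in RNA (-1.11). In footprints, the acetyltransferase gene CREBBP (-0.91), MED12 (-0.75) and the remodeller gene SMARCA4 (-0.61) were lower and CDC73 (0.75) was higher. CREBBP (-1.18) and TBL1XR1 (-0.63) were lower in efficiency. BCL9L, the paralogue of BCL9, had 1108 and 1738 RNA counts, more than BCL9 in both libraries, and stood at 0.20.

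Nuclear repressors had medians of -0.10 in RNA (10 genes) and -0.30 in footprints (6 genes). CTNNBIP1, an inhibitor of the binding of beta-catenin to TCF factors, was higher in RNA (0.60), while the corepressor genes CTBP1 (-0.90) and TLE4 (-0.79) and the kinase gene NLK (-0.90) were lower. TLE3, another corepressor gene, was lower in footprints (-0.96) and in efficiency (-0.62), and AES was highest in footprints (0.30).

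Among adhesion partners, with medians of -0.03 and 0.43 over 5 genes, the E-cadherin gene CDH1 was higher in both assays (0.89 and 1.11) and the alpha-catenin gene CTNNA1 was at -0.49 in RNA and -0.64 in footprints. CTNNB1 and CTNNA1 were both under 0 and CDH1 above it. The catenin gene CTNND1 was also above it, at 0.50 in RNA and 0.49 in footprints. JUP was at -0.05 and -0.21 and CDH3 at -0.03 and 0.43.

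WNT receptors and transducers had medians of 0.03 (12 genes) and -0.01 (6 genes). The receptor-removing ligase gene RNF43 was lower in both assays (-1.32 and -1.23) and the receptor gene FZD1 in RNA (-1.27). FZD7 was higher in footprints by 1.506-fold, with 42 OE-labelled and 77 knockout-labelled counts (log2 ratio 0.59, 0.04 to 1.18). Its OE-labelled footprint count was itself under the count minimum, which is set on the mean of both libraries. FZD5 was highest in RNA (0.39), and the coreceptor gene LRP6 was lower in efficiency (-0.87).

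**Figure D5:**
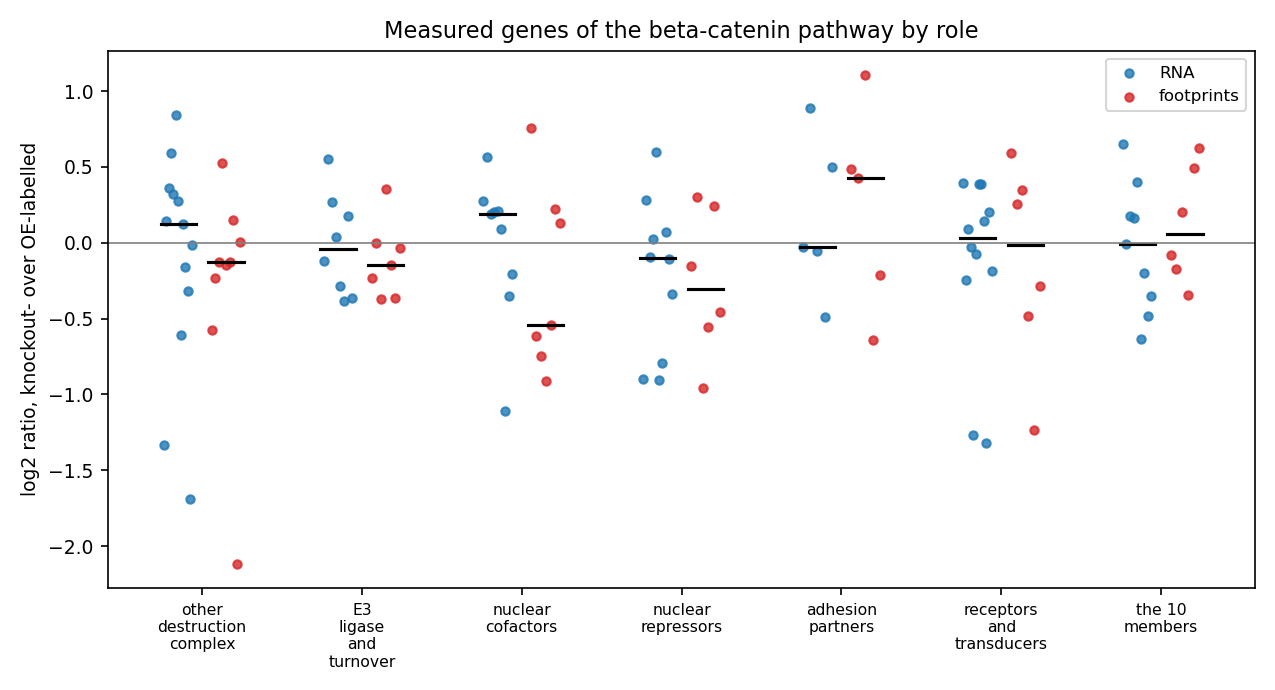
Log2 ratios, knockout-labelled over OE-labelled, of measured genes in 6 lists by role and of the measured members, 9 in RNA (blue) and 6 in footprints (red). Black bars are medians and sideways spread carries no value. The medians of the measured members are -0.01 and 0.06. AXIN2 is the lowest point drawn, at -2.11. LEF1 footprints, at -2.17, are under the count minimum and not drawn.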

How the data were processed

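Ribosome footprints and RNA fragments were counted in 4 libraries. The authors deposited raw counts for 19192 genes, each paired with 1 transcript, per the file headers. Per the labels' protocols, the kept lengths were 18 to 34 nt for footprints and 18 to 50 nt for RNA, before 15 cycles of PCR. GRCh38 is the build in the submitters' processing notes, which also name HISAT2 2.1.0, Bowtie 1.1.2 and cutadapt 1.10 without their roles. Not given in the sources used here are the counter, its use of strand, the part of each transcript counted and any collapsing of PCR copies; uncollapsed copies would make the intervals too narrow. The OE-labelled RNA library is labelled SW840 in one field and SW480 in another, and was taken as SW480.

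Libraries were grouped by title. TMM factors (edgeR 4.0.16, R 4.3.3) scaled the counts of each assay, and CPM use these scaled totals. Ratios have 0.5 added to each count. Intervals between lines are exact conditional binomial (Clopper-Pearson), and those of efficiency, of footprints over RNA and of ratios within a library are Wald intervals from the counts. The ratios between lines and their binomial intervals were checked on simulated counts. The Wald intervals and the TMM factors were not. Sequences, lengths and coordinates are from GENCODE release 29, where 19176 of 19192 transcripts were found. The alternatives used total counts, size factors of DESeq2 1.42.0, upper-quartile scaling, other count minimums, 5 added counts, a fold threshold of 2 and ratios relative to 40 neighbouring genes. Scripts ran in Python 3.11.15 with pandas 2.3.3, scipy 1.17.1, matplotlib 3.10.9 and numpy 2.4.6.

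The members and lists were chosen with earlier results of these data known. Named are all members, the highest and lowest gene of each list per assay and list genes at least 2-fold different. Other list genes at least 1.5-fold different, and BCL9L, CTNND1, JUP and CDH3, are named outside this rule, after their values were seen. The placing of low-count genes and the per-length ranks were also chosen after seeing the data.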

Additional observations from a re-analysis of the deposited data

How the results depend on the processing

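No paired analysis was possible because each line and assay has 1 library. For the same reason no library could be left out. Counts of members past 1.5-fold are 1 or 0, so they turn on single genes. By total counts, with or without mitochondrially encoded genes, 0 members were lower in mRNA and 0 higher in efficiency. With 5 added to each count, 0 were higher in footprints. With a count minimum of 10, 2 members were higher in mRNA, 3 lower in footprints and 3 lower in efficiency, against 13.8%, 19.0% and 18.7% of all genes at that minimum. With no minimum, 2 were higher in mRNA, 2 higher in footprints, 3 lower in footprints and 3 lower in efficiency, against 16.5%, 16.6%, 17.0% and 22.3%. With a minimum of 200, 0 were higher in footprints, 0 higher in efficiency and 0 lower in efficiency, and the footprint median was -0.34, that of CTNNB1 alone. At 2-fold, 0 members were higher or lower in mRNA, 0 higher in footprints and 0 higher or lower in efficiency. Relative to 40 neighbouring genes, 0 were higher and 0 lower in mRNA and 1, GSK3B, was lower in footprints. No member's ratio past 1.5-fold changed sign under the scalings, with 5 added counts or relative to neighbouring genes, those under the count minimum included. Across them LEF1 ranged from -2.17 to -1.91 in footprints and from -1.78 to -1.43 in efficiency, CTNNB1 ranged from -0.46 to -0.23 in mRNA and from -0.35 to -0.18 in footprints, GSK3B from 0.32 to 0.77 in mRNA, and TCF7L2 from 0.57 to 0.72 in footprints. Depth limits BCL9, TCF7, TCF7L1 and LEF1, which have under 50 footprint counts on average.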
